A study of Mus musculus with 6 samples.

Results

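The p53 feedback regulators described here are 9 genes listed by symbol: Mdm2, Mdm4, Rchy1, Ppm1d, Ccng1, Ccng2, Trp53inp1, Phlda3 and Zmat3. Each was represented by a row of the array table that is annotated to that gene alone, and all 9 had such a row, out of 22180 genes measured. Expression was measured on single-colour arrays in 6 samples of mouse embryonic stem cells (ESCs) that are Dgcr8-/-, so that every sample lacked the RNA-binding partner of Drosha and with it the canonical miRNAs. The control group is 3 samples whose ESCs received a control hairpin, and the other 3 samples received sh-miR-302, a hairpin that supplies mimics of miR-302. The series describes the 3 samples of a group as independent biological samples. The labels do not say how many ESC clones or lines they came from. The series title places the comparison in the context of p53 activity in cells without miRNAs. Trp53 has no row of its own among those used and was not analysed here, and Dgcr8 shares its row with another gene.

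p53 is a transcription factor held at a low level in unstressed cells. Mdm2, a ubiquitin ligase whose gene p53 itself activates, marks p53 for degradation, which closes a negative feedback loop, and Mdm4 is a paralog of Mdm2 that binds p53 and restrains its activity. Other p53-activated genes tune the same loop at other steps, among them ubiquitin ligases, a phosphatase and a cyclin G protein. Mouse ESCs are known to carry p53 protein and to respond to DNA damage through it.

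The miR-302 family is abundant in pluripotent cells and recognises its targets through the seed, bases 2 to 8 of the mature miRNA. The labels do not say which family member the hairpin supplies. No miR-302a sequence is given here. The mature 3p sequences of miR-302b, miR-302c and miR-302d are shown because miR-302 separates the groups, not as the hairpin's known product. They are RefSeq's (GRCm38.p6, all on the + strand of chromosome 3), written 5′ to 3′ with bases 2 to 8 in capitals.
mmu-miR-302b-3p: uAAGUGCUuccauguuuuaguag
mmu-miR-302c-3p: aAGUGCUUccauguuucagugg
mmu-miR-302d-3p: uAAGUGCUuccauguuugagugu
miR-302b-3p and miR-302d-3p share the seed AAGUGCU. The miR-302c-3p entry starts at a different base, so that its bases 2 to 8 read AGUGCUU. The array has rows for the miR-302 genes themselves. Mir302b, the row with the largest change, read 4.43, 4.32 and 4.15 in the control arrays and 4.58, 5.45 and 5.61 in the miR-302 arrays on the log2 scale (limma, adjusted p = 0.0585). For Mir302a, Mir302c and Mir302d the groups overlapped, with log2 changes of 0.46, 0.40 and 0.47. None of the 4 Mir302 gene rows was called, and their mean levels lay between percentiles 13.1 and 42.3 of all genes.

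Promoter windows of RefSeq (GRCm38.p6), which run from 250 bases before to 50 bases after a gene's start, were held for 7 of the 9 genes, 9 windows in all. They were searched on both strands for the p53 consensus half-site, the decamer of which 2 copies make up a p53 response element. An exact match was found in 4 of the 9 windows, 1 each for Mdm2, Ccng1, Ppm1d and Rchy1, and in 8.36% of all 32851 windows of the table. The matched stretches are shown because they set the members whose windows hold such letters beside the members whose levels changed, with the match in capitals.
Mdm2: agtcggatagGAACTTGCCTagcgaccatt
Ccng1: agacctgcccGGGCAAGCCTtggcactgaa
Ppm1d: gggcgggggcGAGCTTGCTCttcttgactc
Rchy1: cactatgacaGAGCTTGTCTcctcaaggtg
These lie at chr10:117710925-117710954 on the - strand (Mdm2), chr11:40755452-40755481 on the - strand (Ccng1), chr11:85311112-85311141 on the + strand (Ppm1d) and chr5:91962627-91962656 on the - strand (Rchy1). The match begins 186 bases before the annotated start in Mdm2, 185 in Ccng1, 132 in Ppm1d and 90 in Rchy1. No exact match was present in the windows of Mdm4, Ccng2 and Phlda3. A match of letters is a description of these windows and not evidence of binding. Of the 4 genes with a match, Mdm2 and Ccng1 were higher with miR-302 and Ppm1d and Rchy1 were not called, as described next. Of the genes without a match, Phlda3 was higher and Mdm4 and Ccng2 were not called. No window was held for Zmat3, which was higher, or for Trp53inp1, which was not called.

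With miR-302, 4 of the 9 regulators rose, Mdm2, Ccng1, Phlda3 and Zmat3, and none fell (limma, Benjamini-Hochberg adjusted p under 0.05 over all genes). The other 5, Mdm4, Rchy1, Ppm1d, Ccng2 and Trp53inp1, did not pass the test. Among all 22180 genes, 7.18% were called higher and 9.25% lower, 16.4% in either direction. The median log2 change of the 9 genes was 0.22, against 0.0067 over all genes. The 9 genes were chosen with earlier results of these data known, so these figures are descriptive. Of the 9 genes Mdm2 had the largest change, and the 3 other rises were 1.25-fold to 1.29-fold. Without miR-302 replicate 1, 4 of the 9 were called higher and 1 lower (2484 and 2911 over all genes). Without any 1 of the other 5 arrays, 1 or 2 were called higher and none lower, with Mdm2 called each time. Over all genes the counts in those 5 fits were 685 to 861 higher and 1043 to 1216 lower.

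**Figure D1:**
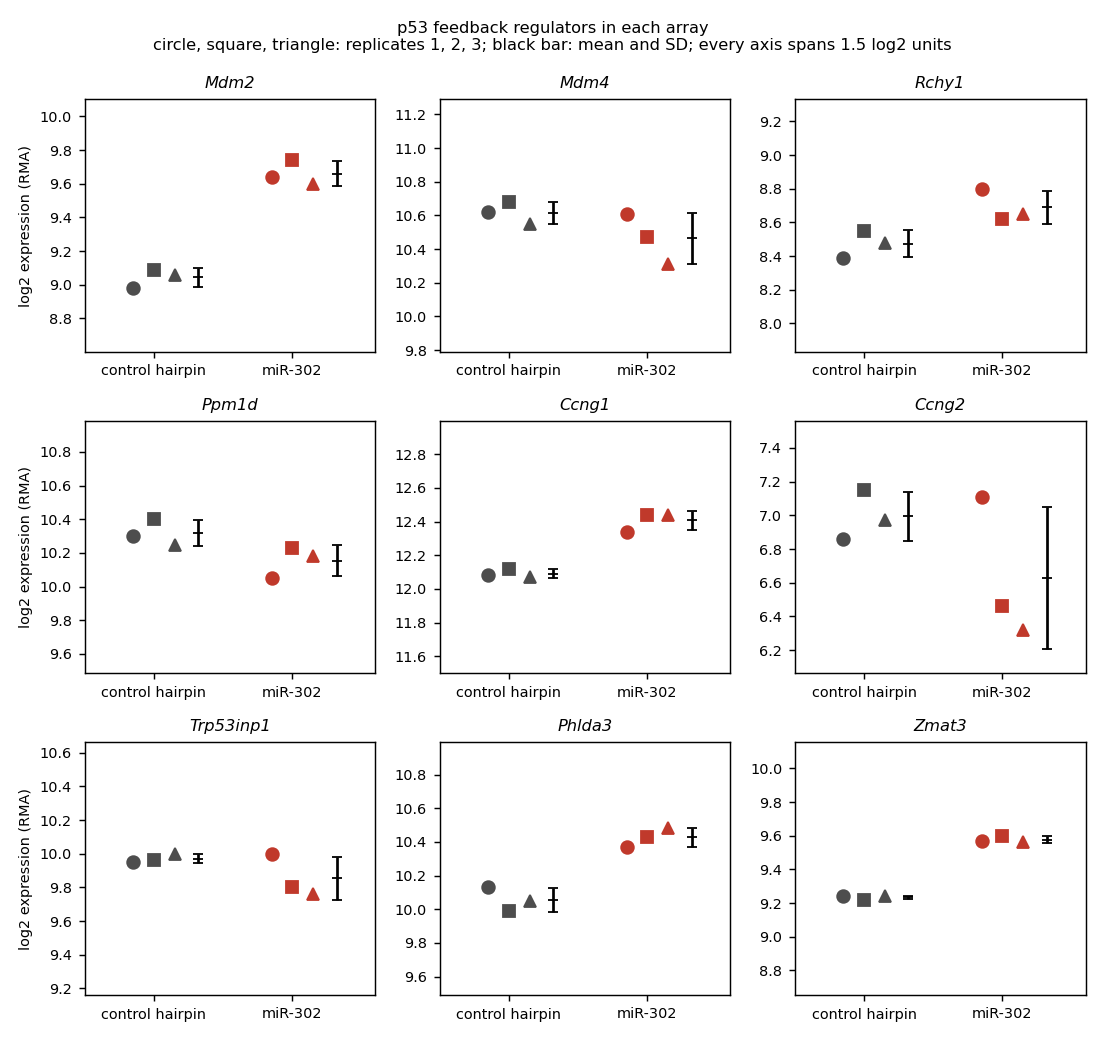
Log2 expression (y axis) of the 9 p53 feedback regulators in each of the 3 control hairpin arrays (grey) and 3 miR-302 arrays (red), with the mean and SD of each group in black; each panel has its own level but the same span. Mdm2 has the widest gap between the groups of the 9 genes, from at most 9.09 to at least 9.60, while Ccng2 in miR-302 replicate 1 (7.11) lies within the control range.

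Among the ubiquitin ligases and their partner, Mdm2 rose and Mdm4 was not called. Mdm2 was 8.98, 9.09 and 9.06 on the log2 scale in the control arrays and 9.64, 9.74 and 9.60 in the miR-302 arrays. All 3 miR-302 values lay above all 3 control values, and the gap between the groups was several times the spread within either. Its log2 change was 0.62 ± 0.07 (SE, n = 3 per group; 95% interval 0.44 to 0.79), 1.53-fold (limma, adjusted p = 0.00345). Of all genes, 7.47% had a larger absolute change. In the 6 fits that each left out 1 array, the log2 change of Mdm2 lay between 0.58 and 0.65, and the call was kept in all 6.

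Mdm4 binds p53 and forms a heterodimer with Mdm2, but has little ligase activity of its own. It was 10.62, 10.68 and 10.55 in the control arrays and 10.61, 10.47 and 10.31 with miR-302. The groups overlapped, since miR-302 replicate 1 lay inside the control range while replicates 2 and 3 lay below it. The log2 change was −0.15 ± 0.09 (SE; 95% interval −0.38 to 0.07; limma, adjusted p = 0.338), which leaves room for a fall of up to 0.38 as well as for no change.

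Mdm2 and Mdm4 are paralogs, and their difference was also taken within each array. The log2 value of Mdm2 minus that of Mdm4 was −1.64, −1.59 and −1.49 in the control arrays and −0.97, −0.73 and −0.71 in the miR-302 arrays. These differences compare the change of the pair and not their levels, which come from different probes. The groups did not overlap, and the difference shifted by 0.77 towards Mdm2 (exact two-sided permutation test, p = 0.1, the smallest that 3 against 3 arrays can give). The shift is the sum of the sizes of the 2 changes given above, of which only that of Mdm2 was called.

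Rchy1 encodes Pirh2, a RING ubiquitin ligase that targets p53 and is itself p53-activated. It was 8.39, 8.55 and 8.48 in the control arrays and 8.80, 8.62 and 8.65 with miR-302. The groups did not overlap, but the distance between the highest control and the lowest miR-302 array was smaller than the spread within each group. The log2 change was 0.22 ± 0.08 (SE; 95% interval 0.02 to 0.41), and it did not pass the test across all genes (limma, adjusted p = 0.131). Among all genes, 16.8% had miR-302 arrays that all lay above the control arrays, and 19% had arrays that all lay below. Of the 9 regulators 5 were of the first kind, the 4 called genes and Rchy1, and 1 was of the second kind, Ppm1d.

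Ppm1d encodes Wip1, a phosphatase that removes activating phosphates from p53 and from the kinases upstream of it. It was 10.30, 10.40 and 10.25 in the control arrays and 10.05, 10.23 and 10.18 with miR-302. Every miR-302 array lay below every control array, by as little as 0.02. The log2 change was −0.16 ± 0.08 (SE; 95% interval −0.36 to 0.03; limma, adjusted p = 0.235), and no setting tried brought it past the threshold, with adjusted p from 0.114 to 0.481.

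Of the 2 cyclin G genes, Ccng1 rose and Ccng2 was not called. Ccng1, a p53-activated gene whose product recruits protein phosphatase 2A to Mdm2, was 12.08, 12.12 and 12.07 in the control arrays and 12.34, 12.44 and 12.44 with miR-302. The groups did not overlap. Ccng1 rose by 0.32 ± 0.07 (SE; 95% interval 0.16 to 0.48) on the log2 scale, 1.25-fold (limma, adjusted p = 0.0229). The call was kept without miR-302 replicate 1 (adjusted p = 0.0109) and lost without any 1 of the other 5 arrays, with adjusted p from 0.07 to 0.0886, although the change itself stayed between 0.30 and 0.35.

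Ccng2, a paralog that is linked to cell cycle exit and is known as a target of FoxO factors, was 6.86, 7.15 and 6.97 in the control arrays and 7.11, 6.46 and 6.32 with miR-302. The miR-302 arrays split, with replicate 1 at the control level and replicates 2 and 3 below every control array. The log2 change was −0.36 ± 0.21 (SE; 95% interval −0.86 to 0.13; limma, adjusted p = 0.296). Without miR-302 replicate 1 it was −0.60 and was called (adjusted p = 0.0117), and with array weights −0.53 (adjusted p = 0.0339).

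The difference of log2 values within an array, Ccng1 minus Ccng2, was 5.22, 4.97 and 5.10 in the control arrays and 5.23, 5.98 and 6.12 with miR-302. It shifted by 0.68 towards Ccng1, but miR-302 replicate 1 exceeded the highest control array by only 0.01 (exact two-sided permutation test, p = 0.1, the smallest possible). Without miR-302 replicate 1 the shift was 0.95.

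**Figure D2:**
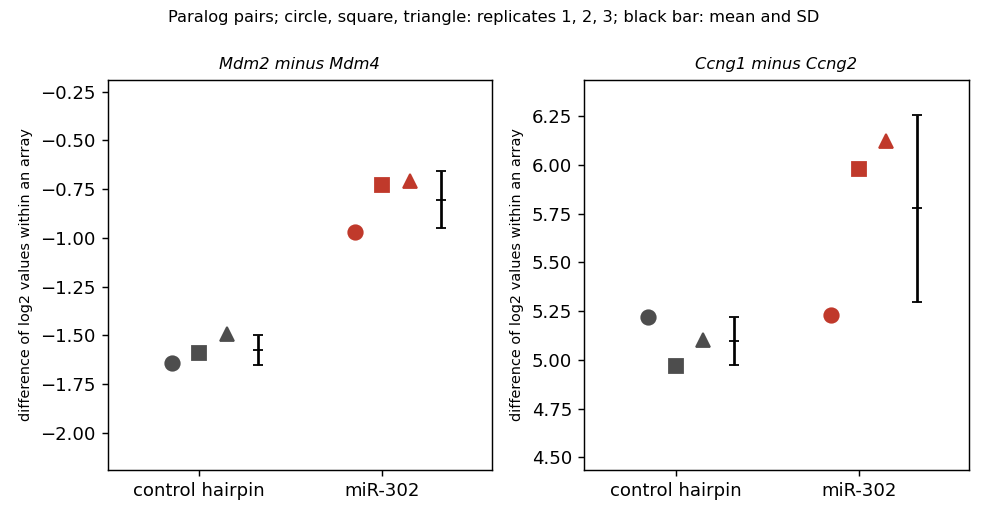
Difference of log2 values within each array (y axis) for Mdm2 minus Mdm4 and for Ccng1 minus Ccng2, with 3 control hairpin arrays in grey, 3 miR-302 arrays in red, and each group's mean and SD in black. For the Mdm pair all miR-302 arrays lie well above the control arrays, whereas for the cyclin G pair miR-302 replicate 1 (5.23) lies level with control replicate 1 (5.22).

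Trp53inp1 encodes a stress protein that is known to promote an apoptosis-linked phosphorylation of p53. It was 9.95, 9.96 and 10.00 in the control arrays and 10.00, 9.80 and 9.76 with miR-302. As for Mdm4 and Ccng2, miR-302 replicate 1 was at the level of the control arrays and replicates 2 and 3 were below it. The log2 change was −0.12 ± 0.08 (SE; 95% interval −0.32 to 0.08; limma, adjusted p = 0.416). It was −0.19 without miR-302 replicate 1, also not called (adjusted p = 0.0783).

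Phlda3, whose product has a pleckstrin homology domain and competes with AKT for membrane lipids, was 10.13, 9.99 and 10.05 in the control arrays and 10.37, 10.43 and 10.48 with miR-302. The groups did not overlap. Phlda3 rose by 0.37 ± 0.07 (SE; 95% interval 0.20 to 0.54) on the log2 scale, 1.29-fold (limma, adjusted p = 0.0176). It was no longer called when replicate 2 or replicate 3 of either group was left out (adjusted p from 0.0593 to 0.072), with a change of 0.34 to 0.37.

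Zmat3 encodes Wig1, an RNA-binding zinc finger protein known to act on the stability and splicing of transcripts. It was 9.24, 9.22 and 9.24 in the control arrays and 9.57, 9.60 and 9.56 with miR-302. Both groups were tight, with SDs of 0.012 and 0.021, and they did not overlap. The log2 change was 0.34 ± 0.06 (SE; 95% interval 0.20 to 0.49), 1.27-fold (limma, adjusted p = 0.0133). The call was lost without any 1 of the 3 control arrays or miR-302 replicate 2, with adjusted p from 0.0517 to 0.0579. A second row of the table, annotated to Zmat3 together with 4930429B21Rik, was left out because it names more than 1 gene. It read 7.50, 7.46 and 7.55 in the control arrays and 7.27, 7.17 and 7.26 with miR-302, a difference of −0.27, opposite in sign to the row used.

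**Figure D3:**
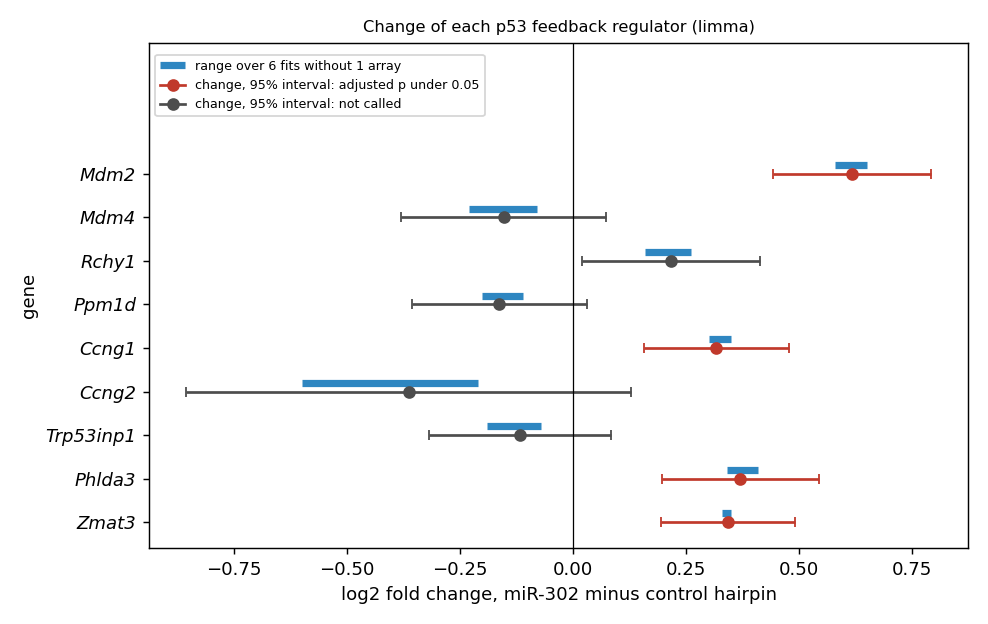
Log2 fold change with miR-302 (x axis) of each of the 9 regulators (y axis), with limma's 95% interval in red where the adjusted p was under 0.05 and in grey where it was not, and in blue the range over the 6 fits that left out 1 array each. The blue range of Mdm2 (0.58 to 0.65) is narrow beside its distance from 0, and that of Ccng2 (−0.60 to −0.21) is the widest.

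The 9 genes thus differed in how far miR-302 replicate 1 departed from the other miR-302 arrays. That array stood apart over the whole table: the root-mean-square difference to replicates 2 and 3 was 0.339 in each case, against 0.204 between replicates 2 and 3 and 0.201 to 0.217 among the control arrays. The gap between replicate 1 and the mean of replicates 2 and 3 had a median size of 0.155 over all genes. It was 0.72 for Ccng2 and 0.22 for both Mdm4 and Trp53inp1. The gaps of the 4 called genes were smaller than that median, −0.03 for Mdm2, −0.01 for Zmat3, −0.085 for Phlda3 and −0.10 for Ccng1. A gene whose miR-302 arrays lie close together passes the test more readily, so these gaps are not independent of the calls.

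**Figure D4:**
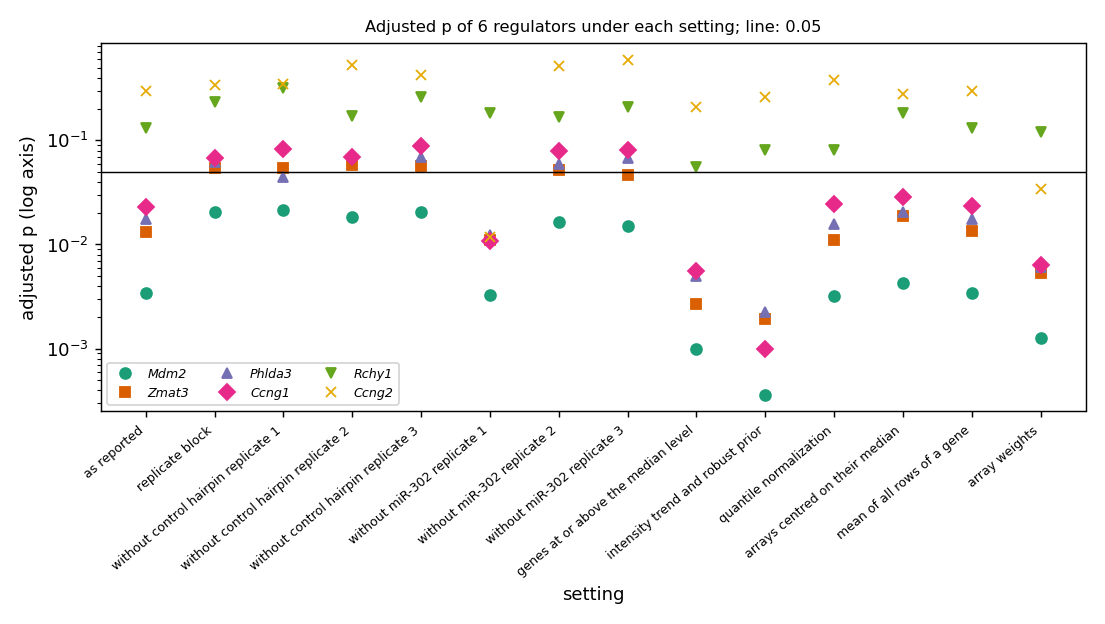
Adjusted p (y axis, log scale) of 6 of the 9 regulators under each setting of the fit (x axis), with the threshold of 0.05 as a line. Mdm2 lies below the line in all the settings plotted, Ccng1, Phlda3 and Zmat3 cross it when most single arrays are left out, and Rchy1 stays above it.

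The genes whose profile over the 6 arrays was most like that of Mdm2 were Stradb, Septin8, Zfp553, Mapk14 and Bmp4. Likeness was measured as the root-mean-square difference over the 6 arrays, each gene taken relative to its own mean, among 10563 named genes at or above the median level. It was 0.036 for Stradb and 0.051 for Bmp4. Mapk14, which encodes the stress kinase p38 alpha, was 9.39, 9.44 and 9.43 in the control arrays and 9.97, 10.01 and 10.00 with miR-302. Since these genes were picked for resembling Mdm2, their shift is a description only. Of the other members, Zmat3 came closest to Mdm2 at 0.145, and 4.01% of the genes compared were closer still. The value was 0.155 for Phlda3, 0.159 for Ccng1 and 0.553 for Ccng2.

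Beyond the feedback genes, 38 further genes that modify, stabilise or bind p53 were listed, and 36 were measured. Of these 4 were higher, 5 lower and 27 not called, with a median log2 change of −0.03, where 7.18% of all genes were higher and 9.25% lower. With each array centred on its median 1 was higher and 7 lower (1437 and 2254 over all genes), and with quantile normalization 5 were higher and 4 lower (1708 and 1900 over all genes). Without miR-302 replicate 1 the counts were 6 and 7 (2484 and 2911 over all genes). Without any 1 of the others none was higher and 1 to 3 were lower (685 to 861 and 1043 to 1216 over all genes).

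The list holds 8 kinases, a grouping that was not among the lists set before the fit. Of these 4 were lower (Chek2, Hipk2, Chek1 and Atr) and 0 higher, where 9.25% of all genes were lower. Over the whole list 4 genes were higher and 5 lower. Atr lay close to the threshold (limma, adjusted p = 0.048). The other 4 kinases, Atm, Dyrk2, Csnk1a1 and Aurka, were not called, with log2 changes from −0.17 to 0.16. Chek2, a checkpoint kinase that phosphorylates p53 and Mdm4, was 9.73, 9.69 and 9.68 in the control arrays and 8.96, 9.01 and 8.79 with miR-302. The groups were far apart relative to their spread, and Chek2 fell by 0.78 on the log2 scale, 1.72-fold (limma, adjusted p = 0.00219), a call kept in each of the 6 fits without 1 array. Hipk2, a kinase of the apoptotic arm, fell from 8.98 ± 0.06 to 8.46 ± 0.15 (SD, n = 3; limma, adjusted p = 0.0134), called in 5 of the 6 such fits. Chek1, the checkpoint kinase of replication stress, fell from 10.42 ± 0.04 to 10.04 ± 0.07 (limma, adjusted p = 0.0147), called in 2 of the 6.

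The remaining regulators named by their p were Hdac1, a deacetylase, with a log2 change of −0.32, and the higher genes Setd7, a lysine methyltransferase, and Yy1, a transcription factor known to favour the binding of Mdm2 to p53. Setd7 was 7.89 ± 0.05 in the control arrays and 8.46 ± 0.23 with miR-302, a log2 change of 0.57 (limma, adjusted p = 0.023). Yy1 changed by 0.28 (limma, adjusted p = 0.0399). The calls of Hdac1, Setd7 and Yy1 were each kept in 1 of the 6 fits without 1 array, with adjusted p up to 0.128, 0.0863 and 0.126. Usp7, the deubiquitinase of Mdm2 and p53, changed by −0.17 (limma, adjusted p = 0.244), and Cdkn2a, whose Arf product inhibits Mdm2, by −0.11 (limma, adjusted p = 0.572). Usp7 and Cdkn2a are not among the genes named by rule and were added, with their values seen, for their direct link to Mdm2.

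Of 33 listed p53-activated effector genes, which act in arrest, apoptosis, metabolism and repair, 28 were measured. Of these 8 were higher, 3 lower and 17 not called, with a median log2 change of 0.03, where 7.18% of all genes were higher and 9.25% lower. The counts were 9 and 4 without miR-302 replicate 1 (2484 and 2911 over all genes), and without any 1 of the others 2 to 5 were higher and 2 lower (685 to 861 and 1043 to 1216 over all genes).

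Of the 6 effectors with the smallest p, 4 had a larger absolute log2 change than Mdm2. Plk2 and Plk3, which encode polo-like kinases, rose 3.24-fold and 2.89-fold. Ephx1, which encodes epoxide hydrolase, and Sesn2, a sestrin gene that restrains mTORC1 signalling, fell 2.88-fold and 1.59-fold. Polk, which encodes a DNA polymerase that bypasses lesions, was 8.49, 8.60 and 8.55 in the control arrays and 8.89, 8.97 and 9.02 with miR-302, a rise of 0.41 on the log2 scale (limma, adjusted p = 0.0117). Aen, an apoptosis-linked nuclease gene, was 7.89, 7.83 and 7.81 in the control arrays and 8.18, 8.16 and 8.19 with miR-302, a rise of 0.33 (limma, adjusted p = 0.0165). The groups did not overlap for either gene. Without 1 array, Polk was called in 4 of 6 fits and Aen in 1 of 6, whereas Plk2, Plk3, Ephx1 and Sesn2 were called in all 6. Cdkn1a, the gene of the CDK inhibitor p21, was also added after its values were seen, as a classical p53 effector. It was 11.50, 11.38 and 11.42 in the control arrays and 10.79, 11.21 and 11.26 with miR-302. The log2 change was −0.35 (interval −0.66 to −0.03), and Cdkn1a was not called (limma, adjusted p = 0.131). All 3 miR-302 arrays lay below the control arrays, as they did for 19% of all genes, and miR-302 replicate 1 was the lowest.

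**Figure D5:**
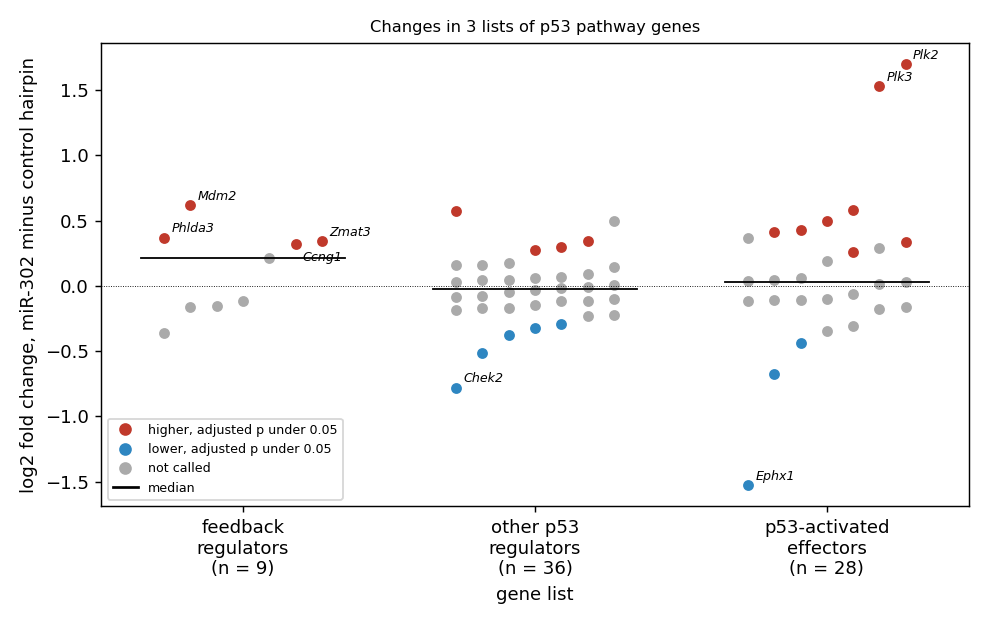
Log2 fold change with miR-302 (y axis) of the 9 feedback regulators, 36 other p53 regulators and 28 p53-activated effectors (x axis; the sideways spread only separates points), coloured by call, with each list's median as a line. The medians are 0.22, −0.03 and 0.03, and the effectors span the widest range, from −1.53 for Ephx1 to 1.70 for Plk2.

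The labelled cell type was checked against marker genes, since these are bulk samples, in which fewer cells of a type and less RNA per cell cannot be told apart. Of 7 ESC markers none was called in either direction, and their summed linear level was 20865 to 21213 in the control arrays and 18499 to 22744 with miR-302. The highest of these sums was that of miR-302 replicate 1, and those of replicates 2 and 3 lay below every control array. In 2 of the 7 ESC markers all miR-302 arrays lay below the control arrays, as in 19% of all genes. These were Sox2 (limma, adjusted p = 0.0891) and Zfp42 (limma, adjusted p = 0.112). In 1, Tdgf1, all lay above (limma, adjusted p = 0.385), as in 16.8% of all genes. Of 8 fibroblast markers, which feeder cells would carry, 1 was lower (Thy1) and none higher, and their summed linear level was 402 to 420 in the control arrays and 440 to 491 with miR-302. Of 8 trophectoderm markers 5 were higher, and their summed level was 1270 to 1346 in the control arrays and 3487 to 9307 with miR-302, lowest in replicate 1. Without the 2 keratin genes Krt8 and Krt18, the sum of the other 6 was 817 to 899 and 1178 to 1392. Of 7 primitive endoderm markers 3 were higher and 1 lower, with summed levels of 374 to 402 and 402 to 443. Beside these marker counts, 7.18% of all genes were called higher and 9.25% lower. No value in the table is 0, and low values cannot be told from background. The part of these markers' shift in the changes of the feedback genes was not tested.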

How the data were processed

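The authors deposited 1 table of log2 expression values, processed with RMA per the submitters' processing notes, with 33649 rows and 6 array columns (0 columns were without a sample). RMA makes the arrays' distributions alike, so a change common to all genes would be hidden; medians over all rows were 5.60 to 5.62. Software, build and log base: not given in the sources used here; base 2 is taken because RMA gives it. Rows with 1 annotated gene (23521; 1814 have several and 8314 none) were kept, and the row with the highest mean stood for a gene, which left 22180. Groups and replicate numbers came from the sample titles.

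The test was limma (version 3.58.1, under R 4.3.3; lmFit, then eBayes; two-sided), with Benjamini-Hochberg adjustment over all genes and a threshold of 0.05, checked on simulated data. Intervals are 95% intervals from the moderated SE. The number of arrays limits the precision. Differences between paralogs were tested by exact permutation. No set test was run. The members and lists were chosen with earlier results of these data known. The genes named are the 9 members, the 6 genes of each of the 2 pathway lists with the smallest p, and the 5 genes most like Mdm2, with exceptions stated; provisional gene models were passed over. Alternatives tried: a block for the replicate number, each array left out, a filter at the median level, a trended and robust prior, quantile normalization, centring, averaging a gene's rows, each row on its own, and array weights. Python 3.11.15 with matplotlib 3.10.9 drew the figures.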

Additional observations from a re-analysis of the deposited data

How the results depend on the processing

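Over 118 refits of single members, 100 kept their direction and call, 16 lost a call, 2 gained one and 0 changed sign. The 100 include refits of members that were not called and had no call to lose. All 16 lost calls were those of Ccng1, Phlda3 and Zmat3, whereas Mdm2 lost none. The same replicate numbers did not mark pairs: deviations of same-numbered arrays correlated at 0.019, 0.017 and 0.0085. With the replicate number as a block, 1 member was higher (Mdm2) and 0 lower, and 0 of the other regulators were higher and 3 lower. In that fit 4 effectors were higher and 3 lower, and 964 of all genes higher and 1329 lower. With each array left out in turn, 1 to 4 members were higher and 0 or 1 lower, 0 to 6 regulators higher and 1 to 7 lower, 2 to 9 effectors higher and 2 to 4 lower, and 685 to 2484 of all genes higher and 1043 to 2911 lower. Array weights gave 4 members higher and 1 lower (Ccng2), 5 regulators higher and 8 lower, and 2617 of all genes higher and 3004 lower. Of the regulators, 7 (of 33 tested) were higher with a filter at the median level, 7 with an intensity trend and robust prior, and 1 with arrays centred on their median. In each of these 3 settings 7 were lower. Over all genes tested the higher counts were 1815 (of 11090), 2019 and 1437, and the lower counts 2479, 2572 and 2254. The shift of Mdm2 against Mdm4 lay between 0.72 and 0.85, and that of Ccng1 against Ccng2 between 0.51 and 0.95. The exact permutation p for the Mdm pair was 0.1 in every setting tried for the pairs. For the cyclin G pair it was 0.2 with quantile normalization and without any 1 control array, and 0.1 otherwise. Mdm2 has a single row, so fitting every row on its own gave the same 0.62. All 9 members lie at or above the median level. Detection calls were not used here, so the arrays' signal over background is unknown.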
